A study of Mus musculus with 119 samples.

Results

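RNA from the dorsomedial striatum (DMS) of male mice was compared between animals given THC, the main psychoactive compound of cannabis, during adolescence and animals given vehicle. The comparison held 12 of the 119 libraries of the series: libraries FTL_303 to FTL_308 from 6 THC-treated males and libraries FTL_297 to FTL_302 from 6 vehicle-treated males, chosen by treatment, sex and region in the sample titles. All 12 males were labelled C57BL/6J and 11 weeks old, although the study's methods name the C57BL/6NCrl substrain and a later week. They received 21 daily intraperitoneal injections from postnatal day 28 to 48, of 10 mg/kg THC or of ethanol, Tween and saline alone, and were tested for memory, social behaviour and anxiety from day 63 before the brains were taken. Every library is bulk RNA from a tissue punch, so fewer cells of a type and less RNA per cell cannot be told apart. By the study's methods each library came from its own mouse, although the labels name none, and the tissue field says dorsolateral striatum where the titles say DMS.

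The DMS is the part of the dorsal striatum that serves goal-directed action. Nearly all its neurons are GABAergic projection neurons, which split into a direct pathway marked by the dopamine receptor Drd1, dynorphin (Pdyn) and tachykinin (Tac1), and an indirect pathway marked by Drd2, the adenosine receptor Adora2a and enkephalin (Penk). THC acts on the cannabinoid receptor encoded by Cnr1, which these neurons express strongly. The medial striatum borders the lateral ventricle, where ciliated ependymal cells line the wall and neural stem cells of the subventricular zone lie beneath them.

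Total expected counts per library lay between 17826631 and 23990712. Striatal projection neuron markers were abundant in every library, with Drd1 between 249 and 337.9 CPM (counts per 1e+06 counts of the library, scaled by TMM). The Y-linked genes Kdm5d, Eif2s3y, Uty and Ddx3y summed to 147 to 179 CPM in 11 libraries and to 95.1 CPM in vehicle library FTL_299, which is 0.587 of the mean of the others. Xist, the female X-inactivation transcript, lay between 0 and 0.309 CPM in 10 libraries, at 1.26 CPM in THC library FTL_308 and at 3.31 CPM in vehicle library FTL_300. Library FTL_308 also stood apart in Slc17a7, the vesicular glutamate transporter of cortical neurons, with 19.0 CPM against 1.66 to 3.50 CPM in the other 11. Tbr1, Neurod6, Neurod2 and Emx1, markers of cortical projection neurons, were too low to be tested.

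No gene passed the test for THC against vehicle. Of 16093 genes tested, 0 (0%) reached an adjusted p under 0.05 with a log2 fold change of 0.4 or more in size, and the smallest adjusted p was 1.00 (edgeR quasi-likelihood test, Benjamini-Hochberg). At an unadjusted p under 0.05, 148 genes (0.92%) were higher and 163 (1.01%) were lower with THC. Both together are fewer than the share of 0.05 expected where no gene differs. DESeq2 called 0 genes as well, with 167 higher and 162 lower genes at an unadjusted p under 0.05. The median standard error of the log2 fold change was 0.0695, and for 11979 genes (74.4%) the whole 95% confidence interval lay within 0.4 on the log2 scale in either direction. For the other genes the interval reached past 0.4, so a difference of that size was not excluded.

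**Figure D1:**
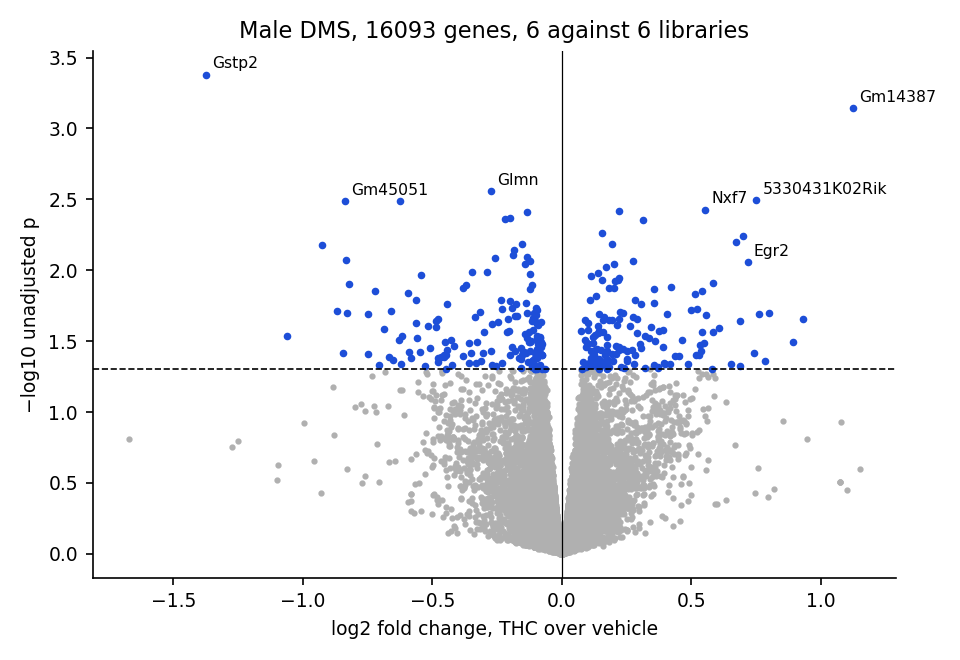
Log2 fold change (THC over vehicle, x axis) and −log10 of the unadjusted p (y axis) for 16093 genes, with the genes above the dashed line (unadjusted p of 0.05) in blue. Gstp2 on the left and Gm14387 on the right lie farthest up, and neither passed the adjusted test.

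The genes with the smallest p are given as a description, since none passed. Gstp2, a glutathione S-transferase gene at chr19:4040285-4046023, had a lowest, median and highest level of 0.530, 0.608 and 0.869 CPM with vehicle and of 0.130, 0.201 and 0.468 CPM with THC. All 6 THC libraries lay below all 6 vehicle libraries, with a log2 fold change of -1.37 ± 0.319 (SE, unadjusted p = 0.000418 in the edgeR fit). Its close relative Gstp1 was far more abundant, at a mean of 158 CPM with vehicle and 153 CPM with THC (log2 fold change -0.04), and reads shared between both genes could have been split by the counting. Gm14387, annotated as an unprocessed pseudogene at chr2:175086501-175089918, lay between 0.214 and 0.663 CPM with vehicle and between 0.678 and 1.58 CPM with THC. Its groups did not overlap either, with a log2 fold change of 1.13 ± 0.276 (SE). Both genes were at low levels in every library.

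Among better expressed genes the differences were small. Mob1a, a kinase activator of the Hippo pathway, lay between 23.7 and 26.8 CPM with vehicle and between 27.1 and 30.3 CPM with THC. Lrrc55, an auxiliary subunit of large-conductance potassium channels, lay between 9.05 and 10.2 CPM with vehicle and between 10.5 and 12.1 CPM with THC. Neither pair of groups overlapped, yet the log2 fold changes were only 0.16 ± 0.049 and 0.20 ± 0.063 (SE). Over all genes tested, 8 (0.0497%) had every THC library above every vehicle library and 8 (0.0497%) had every THC library below. Random labels would separate a gene in a given direction in 1 of 924 labelings, a larger share than either. Of the 10 genes with the smallest p in each direction, Gm14387, Mob1a, Gm49486, Lrrc55 and Acat3 were in the first set and Gstp2 was in the second.

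Gars, the cytosolic and mitochondrial glycyl-tRNA synthetase, was among the lower genes and had a lowest, median and highest level of 85.7, 90.03 and 95.3 CPM with vehicle and of 74.1, 82.6 and 86.1 CPM with THC. Its log2 fold change was -0.14, and the groups overlapped, with 5 of 6 THC libraries below all vehicle libraries. Glmn, which encodes the cullin-ligase inhibitor glomulin, had a log2 fold change of -0.27, the galactosamine kinase gene Galk2 of -0.15 and the selenoprotein gene Selenov of -0.62. Other lower genes were Gm45051, Gm49909, Nr2c2ap and Tsks, with log2 fold changes from -0.93 to -0.20, and Gm45051 is annotated as antisense, so it is uncertain if the counting ignored strand. The remaining higher genes were 5330431K02Rik, Nxf7, Csf2ra, Mfsd3, Gm49486, Tes and Acat3, with log2 fold changes from 0.22 to 0.75.

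Immediate early genes lay toward higher levels with THC, although none passed the test. They encode transcription factors and synaptic regulators that neurons transcribe within minutes of stimulation, in part through cAMP response elements bound by CREB. All 17 members tested (of 18 listed) had a fold change above 0, from 0.02 to 0.72 on the log2 scale, with a median of 0.22 against -0.00494 over all genes tested. By median the list was second to the 4 tested cortical neuron genes (0.25, with the high library FTL_308 among the THC libraries). At an unadjusted p under 0.05, 6 of 17 were higher (Egr2, Arc, Fosb, Junb, Egr1 and Egr3) and 0 were lower, beside 0.92% and 1.01% of all genes. Members of this list respond together, so the 17 are not independent observations.

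The promoters of Fosb and Junb are printed because these members were higher with THC at an unadjusted p under 0.05 and carry the half-site TGACG of the cAMP response element. The sequences are the 250 bases before the RefSeq start on GRCm38.p6, 5′ to 3′ on the gene's strand, and capitals mark the half-site. Fosb lies at chr7:19310046-19310295 on the minus strand and Junb at chr8:84978749-84978998 on the minus strand.
Fosb: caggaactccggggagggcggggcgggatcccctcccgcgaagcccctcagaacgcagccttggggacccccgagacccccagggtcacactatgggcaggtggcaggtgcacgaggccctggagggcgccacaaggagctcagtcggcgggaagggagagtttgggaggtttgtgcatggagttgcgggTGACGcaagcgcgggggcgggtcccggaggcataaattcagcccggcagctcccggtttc
Junb: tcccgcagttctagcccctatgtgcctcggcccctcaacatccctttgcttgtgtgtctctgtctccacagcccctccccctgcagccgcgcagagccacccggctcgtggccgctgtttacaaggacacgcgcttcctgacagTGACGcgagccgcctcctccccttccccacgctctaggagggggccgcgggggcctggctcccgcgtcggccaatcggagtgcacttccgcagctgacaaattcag
Promoter windows were found for 13 of the 17 immediate early genes, and 10 of those 13 (76.9%) held TGACG on either strand, against 17.8% of 32851 promoter windows of the same length. The first share counts genes with a match in any of their windows and the second counts single windows, so the units differ. The full palindrome TGACGTCA, which contains the half-site, was in 2 of the 13, Btg2 and Dusp1, and in 1.55% of all windows. Neither Btg2 (log2 fold change 0.12) nor Dusp1 (0.17) differed at an unadjusted p under 0.05. A match describes letters in a window and not a bound site.

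Egr2, a zinc finger factor at chr10:67535475-67542188, had the largest fold change of the list. It measured 2.45, 3.57 and 3.91 CPM (lowest, median and highest) with vehicle and 2.93, 5.16 and 8.75 CPM with THC. The vehicle libraries were tightly grouped, 4 of 6 THC libraries lay above all of them, and the log2 fold change was 0.72 ± 0.236 (SE, unadjusted p = 0.00875 in the edgeR fit). Arc, which controls AMPA receptor uptake at synapses, measured 27.9, 34.1 and 59.4 CPM with vehicle and 28.8, 59.0 and 76.0 CPM with THC. Its groups overlapped over most of the vehicle range, with a log2 fold change of 0.58 ± 0.261 (SE). Fosb, a subunit of the AP-1 factor, lay between 8.57 and 11.9 CPM with vehicle and between 9.93 and 13.2 CPM with THC, with 5 of 6 THC libraries above all vehicle libraries. Junb, its partner in AP-1, had a log2 fold change of 0.28, Egr1 of 0.25 and Egr3 of 0.11.

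Fos and Nr4a1 had fold changes close to that of Arc, with larger standard errors. Fos ranged from 0.818 to 4.71 CPM with vehicle and from 1.73 to 6.19 CPM with THC, with a log2 fold change of 0.56 ± 0.466 (SE, unadjusted p = 0.255 in the edgeR fit). Nr4a1, an orphan nuclear receptor, ranged from 15.9 to 31.9 CPM with vehicle and from 19.6 to 57.1 CPM with THC, with a log2 fold change of 0.55 ± 0.312 (SE). Npas4, a neuron-specific activity factor, overlapped fully between groups (log2 fold change 0.17). In 5 of 6 THC libraries 12 or more of the 17 genes lay above the vehicle mean, and in FTL_303 3 did. Vehicle libraries FTL_298 and FTL_301 reached that mark as well, with 15 and 13 of the 17 genes. In vehicle libraries FTL_297, FTL_299, FTL_300 and FTL_302 the counts were 7, 6, 8 and 2. THC library FTL_306 was the highest of the 12 for 10 of the 17 genes, and vehicle library FTL_302 was the lowest for 7.

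The summed level of the list was 484 to 611 CPM with vehicle and 513 to 745 CPM with THC. Library FTL_306 had the highest sum at 745 CPM, and THC library FTL_303 lay within the vehicle range at 513 CPM. The count of 6 members was 1 without library FTL_306, 2 without THC library FTL_307, 3 without THC library FTL_308 and 9 without library FTL_303. It was 2 without vehicle library FTL_297, 3 without each of vehicle libraries FTL_299, FTL_301 and FTL_302, and 2 with all 4 DMS groups in 1 fit, with limma and library weights, or without both FTL_299 and FTL_302.

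**Figure D2:**
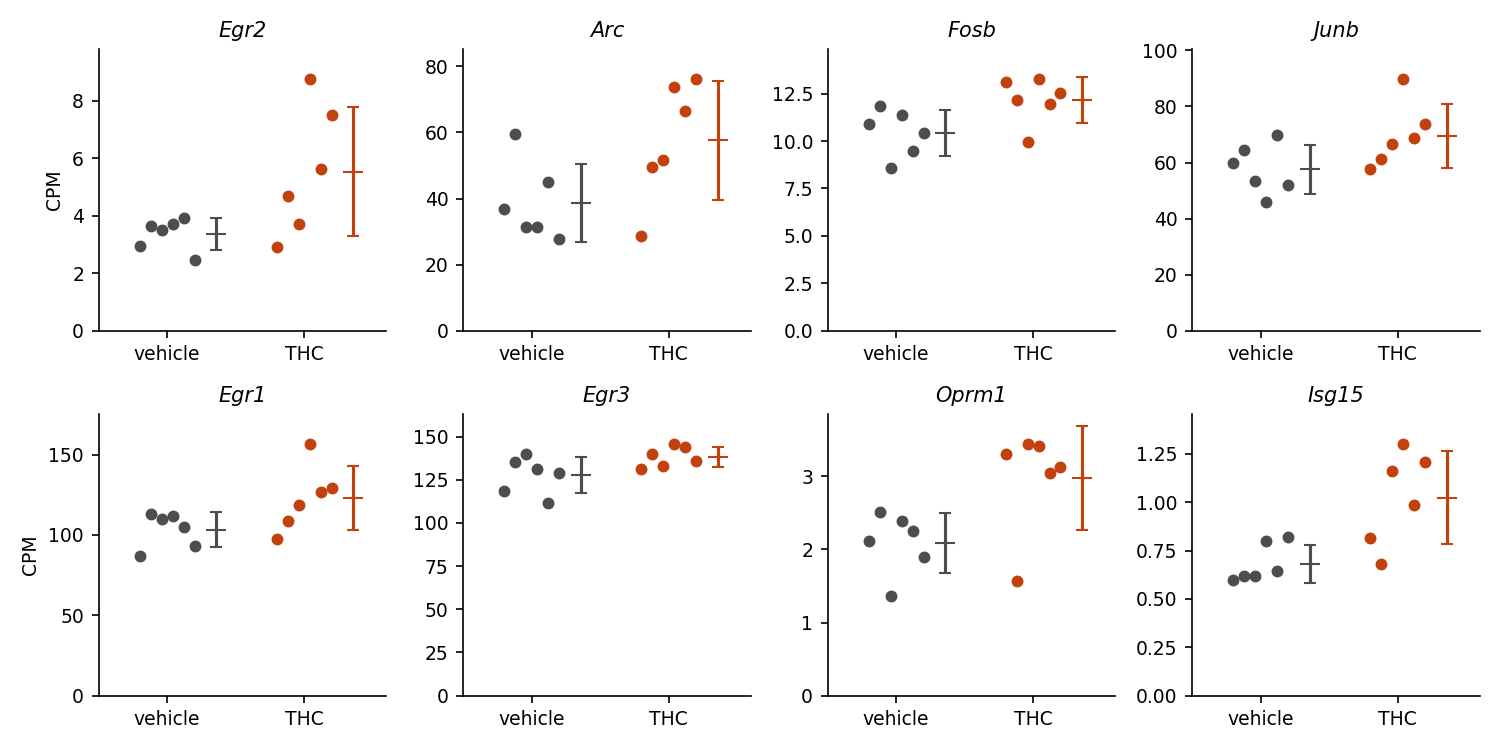
CPM (y axis, from 0) in 6 vehicle libraries (grey) and 6 THC libraries (orange) for the 6 immediate early genes with an unadjusted p under 0.05 and for Oprm1 and Isg15, with bars giving the mean and SD of each group. The groups overlap in every panel, and Egr2 reaches 8.75 CPM with THC against at most 3.91 CPM with vehicle.

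Among the most variable genes, the leading difference between the 12 libraries followed transcripts of the ventricular wall. The first principal component held 60.0% of the variance of the 500 most variable genes (42% over all genes past the filter), and treatment had an R2 of 0.0526 on it (exact permutation test over 924 labelings, two-sided, p = 0.465, adjusted p = 0.465 over 2 components). The second component held 7.21% (R2 = 0.137, exact permutation p = 0.253, adjusted p = 0.465). The first component followed the mean standardized level of the 6 ependymal markers across the 12 libraries (Pearson r = 0.993, a description, since those genes are among the ones that form the component).

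The promoters of Ccdc153 and Dnah10 are shown because both genes were among the 12 most variable and hold the half-site GTTGCC of the X-box, which RFX factors bind in genes of motile cilia. The 250 bases before the start are given as above, with the half-site in capitals. Ccdc153 lies at chr9:44240427-44240676 and Dnah10 at chr5:124724835-124725084, both on the plus strand.
Ccdc153: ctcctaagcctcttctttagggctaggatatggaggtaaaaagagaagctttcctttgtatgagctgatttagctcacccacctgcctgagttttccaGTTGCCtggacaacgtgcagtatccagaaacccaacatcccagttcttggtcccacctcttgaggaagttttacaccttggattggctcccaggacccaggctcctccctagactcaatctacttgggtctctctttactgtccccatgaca
Dnah10: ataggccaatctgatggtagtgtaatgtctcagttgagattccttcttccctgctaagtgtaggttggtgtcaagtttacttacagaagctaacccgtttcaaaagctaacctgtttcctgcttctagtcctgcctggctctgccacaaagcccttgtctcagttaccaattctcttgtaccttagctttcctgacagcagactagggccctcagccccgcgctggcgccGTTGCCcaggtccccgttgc
Among 15 of 20 tested ependymal and motile cilia genes with a promoter window, 5 (33.3%) held GTTGCC on either strand, against 10.4% of all windows. Here too the first share counts genes and the second counts single windows.

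Ccdc153, a marker of ciliated ependyma, measured 0.460, 11.3 and 39.8 CPM (lowest, median and highest) with vehicle and 9.16, 13.7 and 20.9 CPM with THC. The dynein heavy chain gene Dnah10 measured 0.358, 3.93 and 15.4 CPM with vehicle and 3.45, 5.45 and 7.21 CPM with THC. In both genes the vehicle libraries spanned far more than the THC libraries, which all lay inside the vehicle range. Foxj1, the master regulator of motile cilia, ranged from 5.11 to 38.5 CPM with vehicle and from 14.1 to 26.1 CPM with THC. The 6 ependymal markers summed to 116, 74.9, 15.9, 31.1, 153 and 11.96 CPM in vehicle libraries FTL_297 to FTL_302. They summed to 56.5, 64.7, 49.7, 55.6, 90.5 and 60.3 CPM in THC libraries FTL_303 to FTL_308. Vehicle libraries thus held both the highest sums (FTL_301 and FTL_297) and the lowest (FTL_302 and FTL_299), and their median of 53.0 CPM lay beside a THC median of 58.4 CPM.

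Genes of the adult neurogenic niche varied with the ependymal genes. This list of 10 and a list of 14 motile cilia genes were chosen after their values were seen. Top2a, a topoisomerase of dividing cells, ranged from 0.574 to 15.9 CPM with vehicle and from 6.86 to 9.91 CPM with THC. Dcx, which marks migrating neuroblasts, ranged from 14.1 to 48.6 CPM with vehicle and from 25.4 to 31.4 CPM with THC. The niche list summed to between 67.0 and 306.8 CPM with vehicle and between 138 and 179 CPM with THC. The motile cilia list summed to between 8.18 and 200 CPM with vehicle and between 52.2 and 100 CPM with THC. None of the niche genes and none of the ependymal or cilia genes differed between treatments at an unadjusted p under 0.05, with standard errors of up to 0.958 on the log2 scale. Over all genes 0.92% were higher and 1.01% were lower.

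Projection neuron transcripts were lowest where the ventricular genes were highest. The 15 markers shared by both pathways summed to 12486 CPM in library FTL_301 and 14864 CPM in library FTL_297, the libraries with the highest ependymal sums. They summed to 18078 CPM in library FTL_302 and 18022 CPM in library FTL_299, which had the lowest ependymal sums, and to between 15573 and 17466 CPM with THC. Library FTL_307 did not follow this order. It had the highest ependymal sum of the THC libraries (90.5 CPM), and its projection neuron sum of 16841 CPM was not low among them. Across all genes tested, 2.09% had a Pearson r over 0.9 with the first component and 0.0684% had one under -0.9. The spread within the vehicle group was larger than that within the THC group for 64.2% of genes, with a median SD of 0.130 against 0.106 on the log2 CPM scale.

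**Figure D3:**
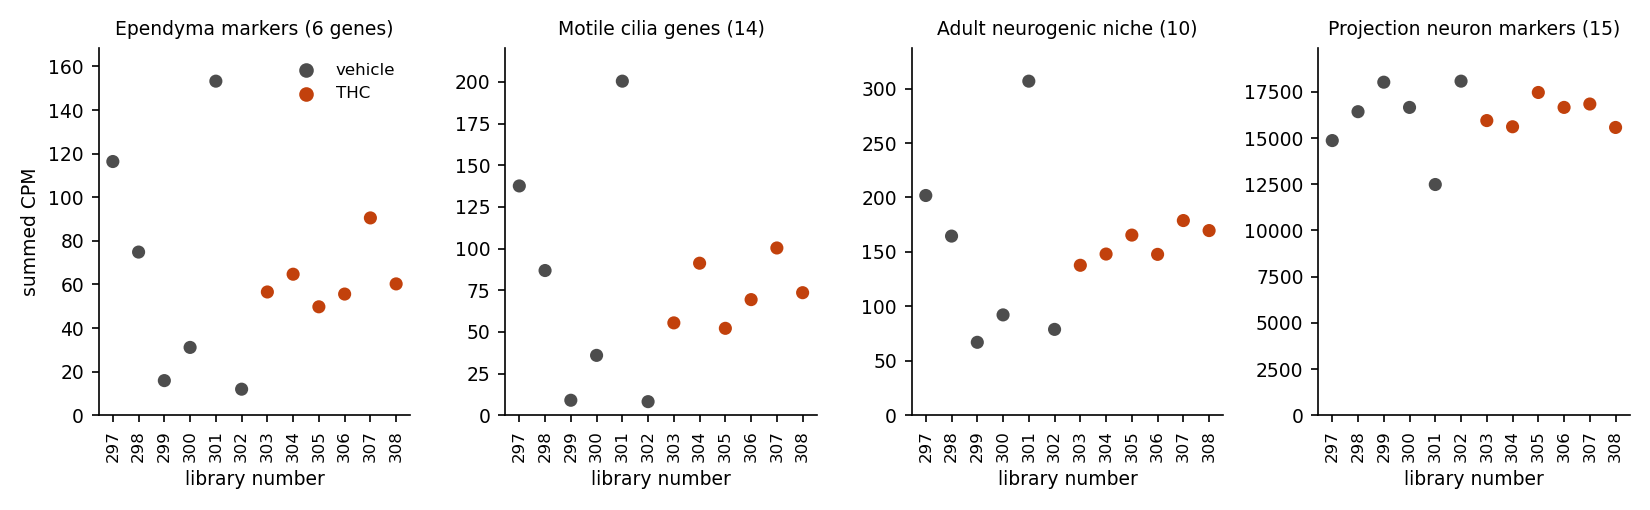
Summed CPM (y axes, from 0) of ependymal markers, motile cilia genes, adult neurogenic niche genes and projection neuron markers in each library (x axis, library number), with vehicle in grey and THC in orange. Vehicle libraries FTL_297 and FTL_301 lie highest and FTL_299 and FTL_302 lowest in the first panel, and for these libraries the order is the opposite for projection neurons.

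With the ependymal score as a covariate, which was added after this axis was seen, 0 genes were called, and at an unadjusted p under 0.05 2.23% of genes were higher and 1.27% (213) were lower. Treatment had an R2 of 0.0602 on that score. In that fit 3 of the immediate early genes were higher at an unadjusted p under 0.05 (Egr2, Fosb and Egr3). Arc had a log2 fold change of 0.51, Junb of 0.24 and Egr1 of 0.26 in it, against 0.58, 0.28 and 0.25 without the covariate. Gstp2 had a log2 fold change of -1.38 and Gm14387 of 1.23. Without vehicle libraries FTL_299 and FTL_302, which had the lowest ependymal sums, Egr2 had a log2 fold change of 0.64 (unadjusted p = 0.0409), Fosb of 0.16 (0.0990) and Oprm1 of 0.37 (0.0763).

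Genes of striatal identity differed between treatments by less than their spread. Drd1 measured 249, 312.8 and 337.9 CPM (lowest, median and highest) with vehicle and 284.4, 306.5 and 322.5 CPM with THC, with a 95% confidence interval of the log2 fold change from -0.14 to 0.13. Drd2 lay between 188 and 261.3 CPM with vehicle and between 223 and 264.1 CPM with THC (interval from -0.14 to 0.20). Penk had a log2 fold change of 0.00 ± 0.083 (SE), Pdyn of 0.10 ± 0.134 and Tac1 of 0.03 ± 0.075. Of the 9 direct pathway, 6 indirect pathway and 15 shared projection neuron markers, 0 differed at an unadjusted p under 0.05. Over all genes 0.92% were higher and 1.01% were lower. With the ependymal score as a covariate, 1 of the 9 and 3 of the 15 were higher and 0 were lower, beside 2.23% and 1.27% of all genes in that fit. Their median log2 fold changes were 0.03, 0.02 and 0.02. Among 12 interneuron markers tested, Lhx8, a homeobox factor of cholinergic interneurons, was higher at an unadjusted p under 0.05 (log2 fold change 0.21 ± 0.086, SE), at 7.66 to 10.9 CPM with vehicle and 9.69 to 12.1 CPM with THC. That is 1 of 12, beside 0.92% of all genes.

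The endocannabinoid genes showed no difference beyond the spread in males. Cnr1 measured 151, 247 and 282.9 CPM (lowest, median and highest) with vehicle and 187, 239 and 269.4 CPM with THC. The groups overlapped fully, and the log2 fold change was 0.00 with a 95% confidence interval from -0.33 to 0.34. Dagla, which makes the ligand 2-arachidonoylglycerol, had a log2 fold change of 0.03 ± 0.056 (SE), Mgll, which degrades it, of 0.03 ± 0.051, and Faah, which degrades anandamide, of -0.07 ± 0.107. Of the 13 members tested 0 differed at an unadjusted p under 0.05, beside 0.92% higher and 1.01% lower over all genes. Cnr2, Gpr55 and Trpv1 were too low to be tested. Cnrip1, a binding partner of the receptor, came closest (log2 fold change -0.12, unadjusted p = 0.0674 in the edgeR fit). With the ependymal score as a covariate, 0 of the 13 were higher and 1 was lower at an unadjusted p under 0.05. Over all genes in that fit the shares were 2.23% and 1.27%. In the sex by treatment interaction given below, 2 had a more positive effect in males and 1 a more negative one. Those shares were 3.11% and 2.79% over all genes, and 0 of the 13 were called. Dagla was among the more positive ones, with an interaction of 0.25 ± 0.093 (SE, unadjusted p = 0.0126 in the edgeR fit). In females Cnr1 had a mean of 320 CPM with vehicle and 229 CPM with THC. The study listed Cnr1 for the female DMS from those libraries, so its female value is not independent of that choice.

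One opioid gene stood out by its unadjusted p. Oprm1, the mu opioid receptor, measured 1.37, 2.18 and 2.52 CPM (lowest, median and highest) with vehicle and 1.57, 3.22 and 3.44 CPM with THC. In 5 of 6 THC libraries it lay above all vehicle libraries, and library FTL_304 lay among the vehicle values at 1.57 CPM. Its log2 fold change was 0.52 ± 0.190 (SE, unadjusted p = 0.0147, adjusted p = 1.00 in the edgeR fit). The delta receptor Oprd1 and the kappa receptor Oprk1 had log2 fold changes of -0.02 and -0.04, so 1 of 8 opioid members was higher and 0 were lower at an unadjusted p under 0.05, beside 0.92% and 1.01% of all genes.

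Dopamine and cAMP signalling had 0 of 17 tested members at an unadjusted p under 0.05 in either direction, AMPA, NMDA and kainate receptors 0 of 15, metabotropic glutamate receptors 0 of 7, and GABA synthesis, transport and receptors 0 of 18. The circadian clock list had 0 of 16, heat and cold shock genes 0 of 10 and the perineuronal net 0 of 7. Among 9 late response genes, Rgs2, a brake on G protein signalling, was higher (log2 fold change 0.12 ± 0.056, SE). Among 12 glucocorticoid response genes, Errfi1, an inhibitor of the EGF receptor, was lower (log2 fold change -0.12 ± 0.055, SE). Among 15 interferon and MHC class I genes, Isg15, a ubiquitin-like protein induced by interferon, was higher, at 0.599 to 0.818 CPM with vehicle and 0.678 to 1.299 CPM with THC (log2 fold change 0.58 ± 0.210, SE). Its list had a median log2 fold change near 0, with Ifit1 and Ifit3 at -0.10 and 0.11. None of these genes passed the adjusted test. Over all genes, 0.92% were higher and 1.01% were lower at an unadjusted p under 0.05. At those shares a count of 0 or 1 in lists this short says little about the lists.

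Glial and vascular markers showed 0 members at an unadjusted p under 0.05 in 12 oligodendrocyte, 6 precursor, 10 astrocyte, 12 microglia, 11 endothelial, 7 mural and 6 meningeal genes, and the 5 blood genes showed 0 as well. The 4 tested genes of cortical neurons, 4 of dopaminergic neurons and 4 of choroid plexus also showed 0. Cytosolic ribosomal proteins had 0 of 85 and a median log2 fold change of 0.01. Of 15 mitochondrially encoded genes, mt-Nd3, a complex I subunit, was higher (log2 fold change 0.23 ± 0.104, SE). The 4 genes that the study named as shared key drivers (Hapln4, Kcnc1, Elavl2 and Zcchc12) had log2 fold changes from -0.06 to 0.03, and 0 differed at an unadjusted p under 0.05. Over all genes, 0.92% were higher and 1.01% were lower. At those shares a count of 0 or 1 in lists of these sizes says little about them.

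**Figure D4:**
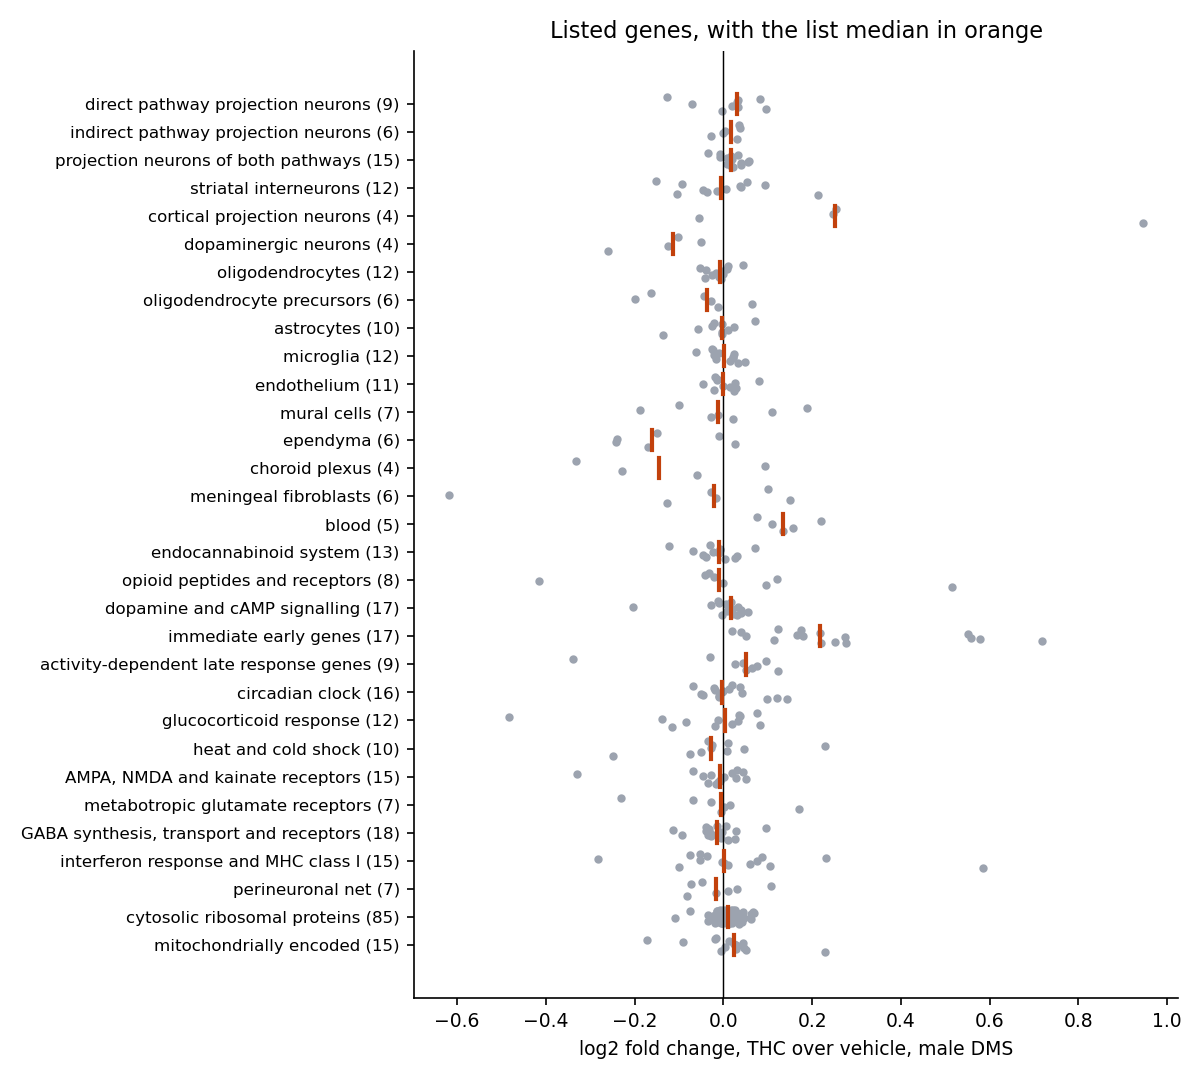
Log2 fold change (THC over vehicle, x axis) of each tested member (grey points) of each list (y axis, with the number tested), and the list median (orange line). The immediate early genes have a median of 0.22 with every member above 0, and most other medians lie close to 0.

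The same treatment was compared in the DMS of 6 THC-treated and 6 vehicle-treated females, which had the same labelled strain, age, doses and injection days, to ask whether the effect differed by sex. Of 16605 genes tested for the sex by treatment interaction, 0 (0%) were called by edgeR, with a smallest adjusted p of 0.189. At an unadjusted p under 0.05, 517 genes (3.11%) had a more positive effect in males and 463 (2.79%) a more negative one. DESeq2 called 3 genes, Sik2, Gm35755 and Spred2, all with a more positive effect in males. The study, which used DESeq2 with the same cutoffs, also reported significant interaction genes in the DMS. Sik2, a salt-inducible kinase that restrains CREB-dependent transcription, measured 30.4, 31.1 and 32.7 CPM (lowest, median and highest) in vehicle males and 32.1, 34.0 and 35.4 CPM in THC males. The male groups overlapped slightly, with a log2 fold change of 0.11 ± 0.041 (SE), against -0.56 in females and an interaction of 0.67 ± 0.123 (SE).

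All 17 immediate early genes were above 0 in males and below 0 in females, with median log2 fold changes of 0.22 and -0.39. The summed level of the 18 listed genes was 646 to 867 CPM in vehicle females and 500 to 856 CPM in THC females, against 478 to 606 CPM in vehicle males and 508 to 739 CPM in THC males. Every vehicle female library thus lay above every vehicle male library. Among THC females, library FTL_291 held the 856 CPM, and the others held 500 to 576 CPM, below every vehicle female library. These sums for both sexes are on a slightly different CPM scale from the male sums given above. In the interaction test 12 of the 18 listed genes, Nr4a2 included, had a more positive effect in males at an unadjusted p under 0.05. A more negative effect was seen in 0, beside 3.11% and 2.79% of all genes, and 0 passed the adjusted test. Fosb had the smallest p of the list, with log2 fold changes of 0.22 in males and -0.39 in females and an interaction of 0.61 ± 0.141 (SE, unadjusted p = 0.000174, adjusted p = 0.362 in the edgeR fit). Egr1 had an interaction of 0.83, Arc of 1.27 and Npas4 of 1.55. The count of 12 was between 9 and 15 when single libraries were left out. It was 15 without female THC library FTL_291 and 9 without female vehicle library FTL_285. Library FTL_285 held 273.1 CPM of cortical neuron markers against 13.2 to 26.6 CPM in the other 11 female libraries, and its part in the result was not tested further. Without male vehicle libraries FTL_299 and FTL_302 the count was 8.

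**Figure D5:**
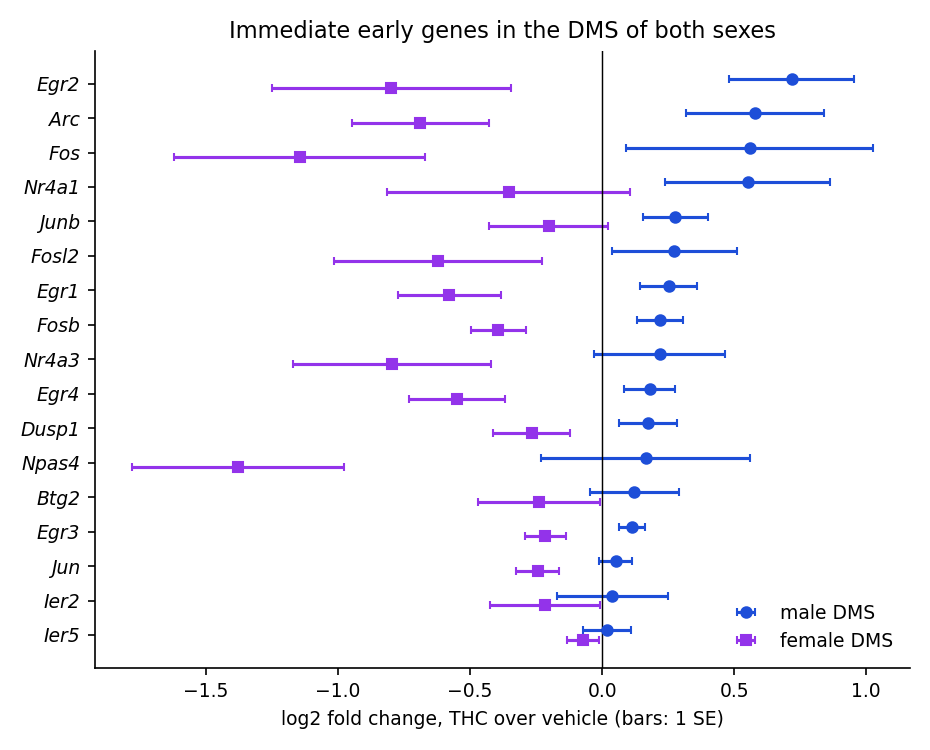
Log2 fold change (THC over vehicle, x axis, bars 1 SE) of 17 immediate early genes in male DMS (blue circles) and female DMS (purple squares), ordered by the male value. Every male value is above 0 and every female value is below 0, with Egr2 at 0.72 in males.

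The 24 genes that the study listed for the female DMS were chosen there on the female libraries, so their interaction is not independent of that choice and their male values are. In males Sik2 was the 1 member at an unadjusted p under 0.05, beside 0.92% of all genes higher and 1.01% lower. The male log2 fold changes of the list lay between -0.10 and 0.47. Spred2, a brake on the MAP kinase cascade, had 0.08 ± 0.061 (SE), the clock gene Per2 0.14 ± 0.099 and the octamer factor Pou2f2 -0.01 ± 0.073. Pdyn had 0.10 in males and 0.46 in females, with an interaction of -0.36 (unadjusted p = 0.0631 in the edgeR fit). Ventricular content differed between the sexes: 10 of 12 female libraries had ependymal sums of 10.2 to 18.8 CPM, and libraries FTL_285 and FTL_292 had 65.3 and 87.5 CPM. In males 10 of 12 libraries lay above 18.8 CPM.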

How the data were processed

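RNA was sequenced from punches of mouse brain, and the 12 male and 12 female DMS libraries were used. Per the labels and the study's methods, the authors prepared stranded poly(A) libraries, trimmed reads with cutadapt 2.9, aligned them to mm10 with STAR 2.7.3a and quantified genes with RSEM 1.3.1. The deposited values are expected counts per gene symbol (55291 symbols), of which 4.72% were not whole and were rounded. RSEM divides reads shared by near-identical genes. The annotation release and the strand setting are not given in the sources used here. Gene positions are from GENCODE M21 (GRCm38), matched by symbol. Tables of the other brain regions were not analysed here.

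Groups came from the sample titles. Genes were filtered with filterByExpr, scaled by TMM and fitted with the edgeR 4.0.16 quasi-likelihood test (R 4.3.3), with treatment as the factor, or sex, treatment and their interaction over 24 libraries. A gene was called at an adjusted p under 0.05 where the log2 fold change was 0.4 or more in size. CPM values use the TMM library sizes. Total expected counts per library were 17826631 to 23990712. Components were taken from log2 CPM (prior count 2) of the 500 most variable genes. Alternatives were DESeq2 and its size factors, no count filter, all 4 DMS groups in 1 fit, 1 surrogate variable and single libraries left out, with 3 more chosen after seeing the data. They used DESeq2 1.42.0, limma 3.58.1 and sva 3.50.0. The tests were tested on simulated data. Genes were simulated independently of each other, without the shared axis seen between these libraries, so the simulation does not cover its effect. Each library came from a separate mouse by the study's methods, so p-values measure the spread between mice.

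Named genes were the 10 with the smallest p in each direction, the 12 most variable with a mean of at least 5 CPM (sex-linked genes left out), and from each list the first 3 members and any with an unadjusted p under 0.05. The members and lists were chosen with earlier results of these data known. Some genes that this rule names are not reported here.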

Additional observations from a re-analysis of the deposited data

Results flagged for a closer look

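A value was marked when the highest or lowest of 6 libraries was separated from the rest by a gap over Dixon's 95% critical value. This marked 14 of 168 groups examined, and chance marks about 1 in 20. Among THC libraries, FTL_308 was marked for the second component (20.3 against -3.03 to 4.35) and for the cortical neuron markers (36.15 CPM against 15.99 to 20.97), FTL_307 for the ependymal markers (90.5 CPM against 49.7 to 64.7), FTL_303 for the meningeal markers (24.2 CPM against 33.6 to 35.1), and FTL_304 for Oprm1 (1.57 CPM against 3.04 to 3.44) and Gm49909 (32.8 CPM against 36.6 to 38.1).

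Among vehicle libraries, FTL_299 was marked for the summed Y-linked genes (95.1 CPM against 152 to 179) and for Tes (1.28 CPM against 0.545 to 0.716), and FTL_298 for Nxf7 (1.85 CPM against 1.15 to 1.28). Library FTL_301, which had the highest ependymal sum, was marked for direct pathway markers (687 CPM against 792 to 835), for mitochondrially encoded genes (61440 CPM against 72030 to 76280) and for the study's shared key drivers (357.3 CPM against 293.8 to 315.4). Gm5537, a processed pseudogene, was marked in vehicle library FTL_300 (0.587 CPM against 12.8 to 16.2) and is listed at 0 in THC library FTL_307 (against 13.8 to 14.45). The causes were not tested.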

How the results depend on the processing

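The count of called genes for THC against vehicle was 0 in all 20 alternatives, with a smallest adjusted p between 0.894 and 1.00. The count at an unadjusted p under 0.05 (148 higher, 163 lower) became 857 with no filter on low counts, 553 with 1 surrogate variable (r = 0.966 with the first component), 586 with the ependymal score, 543 with limma and a weight for each library, and 475 without vehicle libraries FTL_299 and FTL_302, the last 3 chosen after seeing the data. Leaving out single libraries gave 258 to 676, the highest without library FTL_301 (397 of them higher), and the cause was not tested. The interaction gave 0 calls, 3 with DESeq2 and 0 to 1 with single libraries left out. That single call was Sik2, made without female library FTL_286, FTL_287, FTL_288 or FTL_295. Treatment had no exact permutation p under 0.05 on either component, with R2 of 0.00313 to 0.201 on the first and 0.0717 to 0.318 on the second when libraries were left out. The median of every list moved by less than the spread between libraries. Of 129 named genes, none was called for THC against vehicle in any alternative, 63 kept 1 sign throughout and 66 changed sign at least once. The 20 genes with the smallest p kept their sign and an unadjusted p under 0.05 in all 20. They were chosen by p in the same libraries that the alternatives refit, so this was largely set by the choice. No paired analysis was possible because each library carries only its own number and no mouse identity.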

Other observations

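Several of the most variable features were pseudogenes. Rpl27-ps3 and Gm11518, both processed pseudogenes, ranged from 0 to 36.7 CPM and from 0.383 to 44.9 CPM. Their sum stayed between 37.1 and 46.9 CPM in all 12 libraries, and in 5 libraries their values were equal within 1%. In vehicle libraries FTL_298, FTL_300 and FTL_302 Rpl27-ps3 is listed at 0 and Gm11518 held 40.7, 41.4 and 44.9 CPM. In THC libraries FTL_304 and FTL_308 Rpl27-ps3 held 36.2 and 36.7 CPM and Gm11518 0.887 and 0.383 CPM. The pseudogene Gm12671 was at 0.921 and 0.358 CPM in vehicle libraries FTL_297 and FTL_302 and at 25.9 to 36.4 CPM in the other 10. Rn7s1, a signal recognition particle RNA, is listed at 0 in THC library FTL_308 and lay between 52.2 and 242 CPM elsewhere. Fold changes of these 4 features carry standard errors of 0.661 to 0.952 on the log2 scale.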
